A study of Rattus norvegicus with 18 samples.

Results

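The subunits of the proteasome were followed in rat primary hepatocytes treated with EMD. Members were all genes whose annotated symbol is Psma, Psmb, Psmc, Psmd or Psme followed by a number, read through probe sets that carry a single gene symbol, and each gene was represented by its probe set with the highest mean over the 18 arrays. This gave 39 members of the 14217 genes on the array with a single symbol. Of these, 34 belong to the constitutive proteasome and 5 to the immunoproteasome (Psmb8, Psmb9, Psmb10, Psme1 and Psme2), and 30 members have a single probe set. Psmb6 and Psme3 have no values here, because the annotation gives their probe sets several symbols (Psmb6l1 with Psmb6, and Psme3 with Aoc3 and G6pc1). A further probe set shared by Psma3 and the copy Psma3l was left out for the same reason, and the values of Psma3 are uncertain to the extent that its own probe set could also bind RNA of that copy.

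Hepatocytes from livers of Wistar rats were plated, left to attach for 24 h and then treated with EMD, a compound described by the study as a dual agonist of PPARα and PPARγ, at 30 or 100 µM, or with the vehicle, 0.1% DMSO, for 24 or 72 h. The incubation medium of all 6 groups held gentamicin, insulin and hydrocortisone, and each group had 3 arrays. The labels call the EMD arrays, and the methods all arrays, biological replicates, and the methods state that cells of each animal received all treatments, but no label ties a replicate number to an animal. The cells are freshly isolated and not a line, and a culture can keep some non-hepatocyte liver cells.

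The proteasome is the barrel-shaped protease that degrades proteins tagged with ubiquitin. Its 20S core has outer rings of α subunits (Psma genes), which gate the entrance, and inner rings of β subunits (Psmb genes), of which β1, β2 and β5 cut. The 19S cap, made of ATPases (Psmc genes) and non-ATPase subunits (Psmd genes), binds, unfolds and deubiquitinates substrates. Under interferon γ many cells replace the cutting subunits by Psmb9 (β1i), Psmb10 (β2i) and Psmb8 (β5i) and add the PA28 cap (Psme1 and Psme2), which changes the peptides available to MHC class I molecules. In liver, the constitutive form is the main form of hepatocytes, and immune cells are richer in the inducible subunits.

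Array values ran from 2.39 to 14.77 on the log2 scale, array medians from 5.04 to 5.11, and the lowest correlation between arrays was 0.961. The mean of 8 hepatocyte markers lay between 12.31 and 12.98 on every array. With EMD at 72 h, however, 4 of them were called lower at each dose, among them Apoa1 and Serpina1. Of all probe sets, 9.22% were called lower there at 30 µM and 9.68% at 100 µM. At 30 µM 1 marker was called higher, as were 7.88% of all probe sets. Of markers of other liver cells, 7 of 11 macrophage, 11 of 11 lymphocyte, 7 of 7 endothelial and 8 of 9 stellate or fibroblast genes lay under the median level of all probe sets, 5.10, as did 3 of 5 cholangiocyte genes. Of these last, Epcam had a mean of 8.81. It rose by 1.81 ± 0.25 over time with DMSO (adjusted p = 1.2e-04) and by 0.92 ± 0.25 with 30 µM EMD at 24 h (0.042, with overlapping groups, lost under 11 of 26 alternatives), and its part in the proteasome results was not tested. All changes given are differences of log2 group means ± SE of a limma fit over all arrays (n = 3 per group), and rises and falls are those with a Benjamini-Hochberg adjusted p under 0.05 over 31042 probe sets.

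All 39 members lay above the median level. The 34 constitutive members had means over all arrays from 8.11 (Psma3) to 12.32 (Psmb4), with a median of 10.39, and the 5 immunoproteasome members from 6.92 (Psmb10) to 11.43 (Psme1), with a median of 8.81. Such levels depend on the probes and do not rank the amounts of different RNAs. Constitutive members moved little over the 6 groups: the gap between the highest and the lowest group mean had a median of 0.31 (0.11 to 1.21). For the immunoproteasome members this gap had a median of 1.07 (0.31 to 1.37). The 5 members with the widest gap were Psmb9 (1.37), Psmb10 (1.27), Psmd1 (1.21), Psmb8 (1.07) and Psma3 (1.02), followed by Psmd5 at 0.51.

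Of the 3 inducible cutting subunits, Psmb9 and Psmb10 fell at both doses at 72 h, where 17.1% of all probe sets were called at each dose. In such bulk samples, fewer cells of a type and less RNA per cell cannot be told apart. Psmb9 (β1i) had log2 values of 8.31, 8.07 and 7.66 in the 30 µM EMD cultures, against 9.45, 9.34 and 8.89 in the DMSO cultures of 72 h. At 100 µM EMD it had 8.62, 8.28 and 7.75, against the same vehicle arrays. All 6 EMD arrays of that time lay under all 3 DMSO arrays. Psmb9 thus changed at 30 µM by -1.21 ± 0.32 (adjusted p = 0.015), to 43.1% of the vehicle level, and at 100 µM by -1.01 ± 0.32 (0.041), to 49.7%. The call at 30 µM was lost without DMSO 72 h replicate 1 (0.06) or 2 (0.053) or EMD 30 µM 72 h replicate 3 (0.076), and the call at 100 µM without DMSO 72 h replicate 1 (0.13) or 2 (0.12), EMD 30 µM 72 h replicate 2 (0.052) or EMD 100 µM 72 h replicate 2 (0.083) or 3 (0.19), with cyclic loess (0.054) or with an intensity trend (0.068). Over all alternatives the changes were -1.38 to -1.04 and -1.29 to -0.78.

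Psmb10 (β2i) was lower in the same cultures. Its values were 6.80, 6.03 and 6.48 in 30 µM EMD cultures, against 8.21, 7.88 and 7.03 in DMSO cultures of 72 h, and 6.92, 6.67 and 6.64 at 100 µM EMD against the same DMSO arrays. The groups did not overlap, although DMSO replicate 3 stood close to the highest EMD arrays. Psmb10 changed by -1.27 ± 0.30 at 30 µM (adjusted p = 0.007) and by -0.96 ± 0.30 at 100 µM (0.037), to 41.5% and 51.4% of the vehicle level. The call at 30 µM held under every alternative and without any single array. At 100 µM it was lost without DMSO 72 h replicate 1 (0.17) or 2 (0.12) or EMD 100 µM 72 h replicate 2 (0.10) or 3 (0.11), with only the arrays compared (0.069) or with an intensity trend (0.055).

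Psmb8 (β5i) had 8.53, 8.13 and 8.01 in 30 µM EMD cultures, against 9.34, 9.09 and 8.73 in DMSO cultures of 72 h, without overlap. Its difference of -0.83 ± 0.30 did not pass (adjusted p = 0.075), but did without EMD 30 µM 24 h replicate 1 (0.041) or EMD 100 µM 24 h replicate 1 (0.039), with only the arrays compared (0.02), with array weights (0.031) or with the replicate number as a block (0.0019). At 100 µM EMD the values were 8.69, 8.76 and 8.56, which overlap those of DMSO, and the difference was -0.39 ± 0.30.

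The 2 genes of the PA28 cap, which opens the gate of the 20S core, were not called against DMSO at either dose or time. Psme1 (PA28α) had 11.39, 11.18 and 11.21 in 100 µM EMD cultures, against 11.65, 11.60 and 11.47 in DMSO cultures of 72 h, a difference of -0.31 ± 0.11 with no overlap (adjusted p = 0.06). It passed without DMSO 24 h replicate 1 (0.034) or 3 (0.04) or EMD 100 µM 72 h replicate 1 (0.035), with cyclic loess (0.046), array weights (0.0087) or an intensity trend (0.047), with only probe sets above the median level (0.042), and with the replicate number as a block (0.010). A dimmer second probe set of Psme1 went the other way and was called higher, by 0.34 ± 0.10 (0.023). The mean of both probe sets differed by 0.01 (adjusted p = 0.95). Psme2 (PA28β) had 10.14, 10.08 and 10.20 in 30 µM EMD cultures, against 10.47, 10.23 and 9.90 with DMSO. These values overlap, and the difference of -0.06 ± 0.17 had a 95% interval from -0.41 to 0.29.

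**Figure D1:**
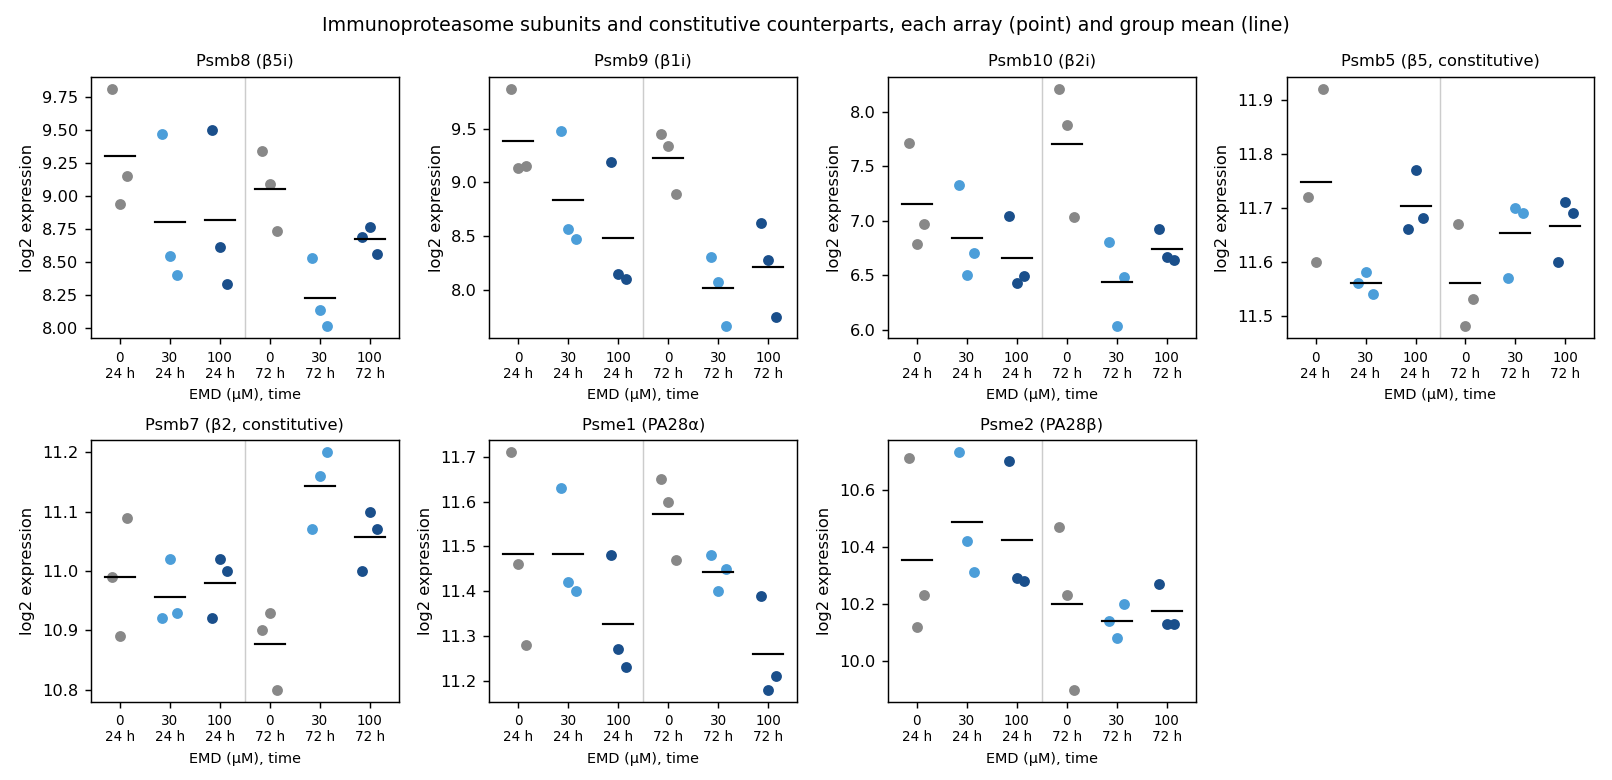
Log2 expression of the inducible subunits Psmb8, Psmb9 and Psmb10, the constitutive counterparts Psmb5 and Psmb7, and the PA28 genes, by EMD dose (µM, 0 being DMSO) at 24 h and 72 h. Points are arrays (replicates 1, 2 and 3 from left to right), lines are group means and each panel has its own axis. At 72 h all EMD arrays of Psmb9 and Psmb10 lie under all DMSO arrays, whereas Psmb5 spans only 11.48 to 11.92 over all arrays.

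At 24 h the 3 inducible subunits had negative differences that did not pass without a replicate block. Psmb9 had 9.19, 8.15 and 8.10 in 100 µM EMD cultures, against 9.87, 9.13 and 9.15 in DMSO cultures, a difference of -0.90 ± 0.32 (adjusted p = 0.13) that passed without EMD 100 µM 24 h replicate 1 (0.028). The difference at 30 µM was -0.54 ± 0.32 (0.45). With the replicate number as a block, Psmb9 passed at 24 h at both doses (adjusted p = 6.9e-04 at 100 µM and 0.033 at 30 µM), and at 100 µM each EMD array lay under the DMSO array of its number. Psmb8 differed by -0.50 ± 0.30 at 30 µM and -0.48 ± 0.30 at 100 µM, and Psmb10 by -0.31 ± 0.30 and -0.50 ± 0.30. The groups of these genes overlapped through the replicate 1 arrays, which were the highest of their group for each of the 5 immunoproteasome genes in all 3 groups of 24 h. Over the 6 groups, replicate 1 was highest in 6 for Psmb9, Psmb10 and Psme1 and in 5 for Psmb8 and Psme2. The median SD within a group was 0.428 for the 3 inducible cutting subunits, 0.132 for the PA28 genes and 0.072 for the constitutive members. The same arrays stood apart in MHC class I genes. RT1-N2 read 7.54 to 9.66 on the 6 replicate 1 arrays and 3.59 to 4.69 on the other 12. RT1-CE16 ran the other way, with 7.58 to 8.61 on replicate 1 and 8.36 to 9.29 on the others. These ranges overlap over all groups, but within each of the 6 groups replicate 1 read lower than both other replicates. RT1 genes have near-identical copies that share probes, so their values are uncertain. The block takes out what arrays of the same number share, and the calls of Psmb9 and Psmb10 at 72 h passed with it as well.

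Averaged over both doses and times, all 3 inducible cutting subunits fell with EMD, in a comparison in which 21.5% of all probe sets were called. The changes were -0.92 ± 0.20 for Psmb9 (adjusted p = 0.0025), -0.76 ± 0.19 for Psmb10 (0.0059) and -0.55 ± 0.19 for Psmb8 (0.044). The call of Psmb8 was lost under 15 of 25 alternatives, with adjusted p up to 0.15 without DMSO 24 h replicate 1, and those of Psmb9 and Psmb10 under none. Psme1 differed by -0.15 ± 0.07, passing without DMSO 24 h replicate 3 (0.042), with array weights (0.041) and with the replicate block (0.037), and Psme2 by 0.03 ± 0.10. Neither the change between 24 and 72 h in the response to 30 µM EMD, -0.96 for Psmb10, -0.67 for Psmb9 and -0.33 for Psmb8, nor that in the response to 100 µM, -0.46 to 0.10 for these 3 genes, passed, although that of Psmb10 at 30 µM did with the replicate block (0.05 after rounding). No difference between the doses passed for these genes either: at 72 h, 100 µM EMD minus 30 µM EMD was 0.44 for Psmb8 (95% interval -0.20 to 1.09), 0.31 for Psmb10 (-0.33 to 0.95) and 0.20 for Psmb9 (-0.48 to 0.89), and at 24 h it was -0.36 to 0.01.

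Neither measured constitutive counterpart was called lower, and Psmb6 (β1), which Psmb9 replaces, was not analysed here. Psmb5 (β5), which Psmb8 replaces, had 11.57, 11.70 and 11.69 in 30 µM EMD cultures and 11.60, 11.71 and 11.69 in 100 µM EMD cultures of 72 h, against 11.67, 11.48 and 11.53 with DMSO. These groups overlap, and the differences were 0.09 ± 0.09 and 0.11 ± 0.09. At 24 h the 30 µM EMD arrays (11.54 to 11.58) lay under the DMSO arrays (11.60 to 11.92), a difference of -0.19 ± 0.09 that did not pass (adjusted p = 0.29). Psmb7 (β2), which Psmb10 replaces, had 11.07, 11.16 and 11.20 in 30 µM EMD cultures, against 10.90, 10.93 and 10.80 with DMSO. The rise of 0.27 ± 0.08 had an adjusted p of 0.020 and was no longer called without EMD 30 µM 72 h replicate 2 (0.064) or 3 (0.086) or DMSO 72 h replicate 3 (0.081), or with only the arrays compared (0.082). At 100 µM its difference was 0.18 ± 0.08 and did not pass.

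Promoter sequence from RefSeq (build GRCr8, 250 bases before to 50 after the start of each gene) was at hand for 35 of the 39 members. It was searched on both strands for GAAA, any 2 bases and GAAA again, the core of the elements through which interferon-regulatory factors bind DNA. The letters occurred in 3 of 5 immunoproteasome promoters, in 3 of 30 constitutive ones (Psma4, Psmb3 and Psmd7) and in 3.92% of the 33469 promoters of the table. The stretches below are given because they show which inducible members hold the letters, in capitals, and Tap1 is added because it shares its upstream region with Psmb9. Each is read 5′ to 3′ on the strand of its gene, and the matches of Psmb8 and Tap1 are in reverse complement.
Psmb10, chr19:50743293-50743372 (- strand): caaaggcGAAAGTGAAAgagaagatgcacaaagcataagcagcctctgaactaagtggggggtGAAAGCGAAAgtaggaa
Psmb8, chr20:4657026-4657091 (- strand): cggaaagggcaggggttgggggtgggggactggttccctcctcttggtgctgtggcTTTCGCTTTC
Psme2, chr15:33052752-33052811 (- strand): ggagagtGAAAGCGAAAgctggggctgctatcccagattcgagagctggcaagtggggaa
Psmb9, chr20:4668940-4668999 (+ strand): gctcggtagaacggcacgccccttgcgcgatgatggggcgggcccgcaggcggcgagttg
Tap1, chr20:4668630-4668689 (- strand): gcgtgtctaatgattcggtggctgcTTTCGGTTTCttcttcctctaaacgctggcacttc
Psmb10 held 2 matches, at -73 and -17 from its start, Psme2 1 at -53, and Psmb8 1 that begins at -4. Psmb9 held none in its own window. It lies head to head with Tap1, the starts being 457 bases apart, and the match of Tap1 lies between both starts, its leftmost base 345 bases before the start of Psmb9. A match describes the letters only.

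Across the complete set, the response to EMD was small. At 24 h limma called 0 of 39 members at 30 µM, where 5.36% of all probe sets and 9.8% of those above the median level were called, and 3 members had an unadjusted p under 0.05. At 100 µM and 24 h it likewise called 0, against a background of 6.01% (11.2% above the median level), with 6 members under 0.05 unadjusted. With the replicate number as a block, Psmb9 was called at 24 h at 30 µM (adjusted p = 0.033) and at 100 µM (6.9e-04). At 72 h, 8 members (20.5%) were called at 30 µM, against 17.1% of all probe sets and 28.4% of those above the median level. Of these 8, 5 were higher (7.88% of all probe sets were) and 3 lower (9.22%). At 100 µM and 72 h, 2 members (5.13%) were called, both lower and both inducible, against 17.1% and 28.3% in either direction and 9.68% of all probe sets lower, with 14 members under 0.05 unadjusted. Beside the probe sets above the median level, where all members lie, each share of the main fit was below the background.

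The sizes were below the background as well. The median absolute change of members was 0.12 at 30 µM and 0.11 at 100 µM at 72 h, against 0.22 for probe sets above the median level at each dose. Through the probe sets used, all 34 constitutive members changed by less than 0.5 in each of the 4 comparisons of EMD with DMSO. So did 78.3% and 78.1% of the brighter probe sets at 72 h, at 30 and 100 µM. In dimmer probe sets, Psme4 changed by -0.65 ± 0.18 at 100 µM and 72 h (adjusted p = 0.02) and Psmd14 by 0.52 ± 0.14 at 100 µM and 24 h (0.035). Another probe set of Psme4 rose by 0.25 ± 0.08 at 30 µM and 72 h (0.039). The probe sets used for these genes were not called there. The SE of a member's change had a median of 0.09 (0.07 to 0.32), with the inducible subunits at the upper end. The counts at 72 h depended on single arrays. At 30 µM the count was 5 without DMSO 72 h replicate 2 or 3, or without EMD 30 µM 72 h replicate 2 or 3. At 100 µM the count was 0 without DMSO 72 h replicate 2 or EMD 100 µM 72 h replicate 2 or 3, 1 without DMSO 72 h replicate 1 or EMD 30 µM 72 h replicate 2, 4 without DMSO 24 h replicate 3, and 7 without EMD 100 µM 72 h replicate 1.

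**Figure D2:**
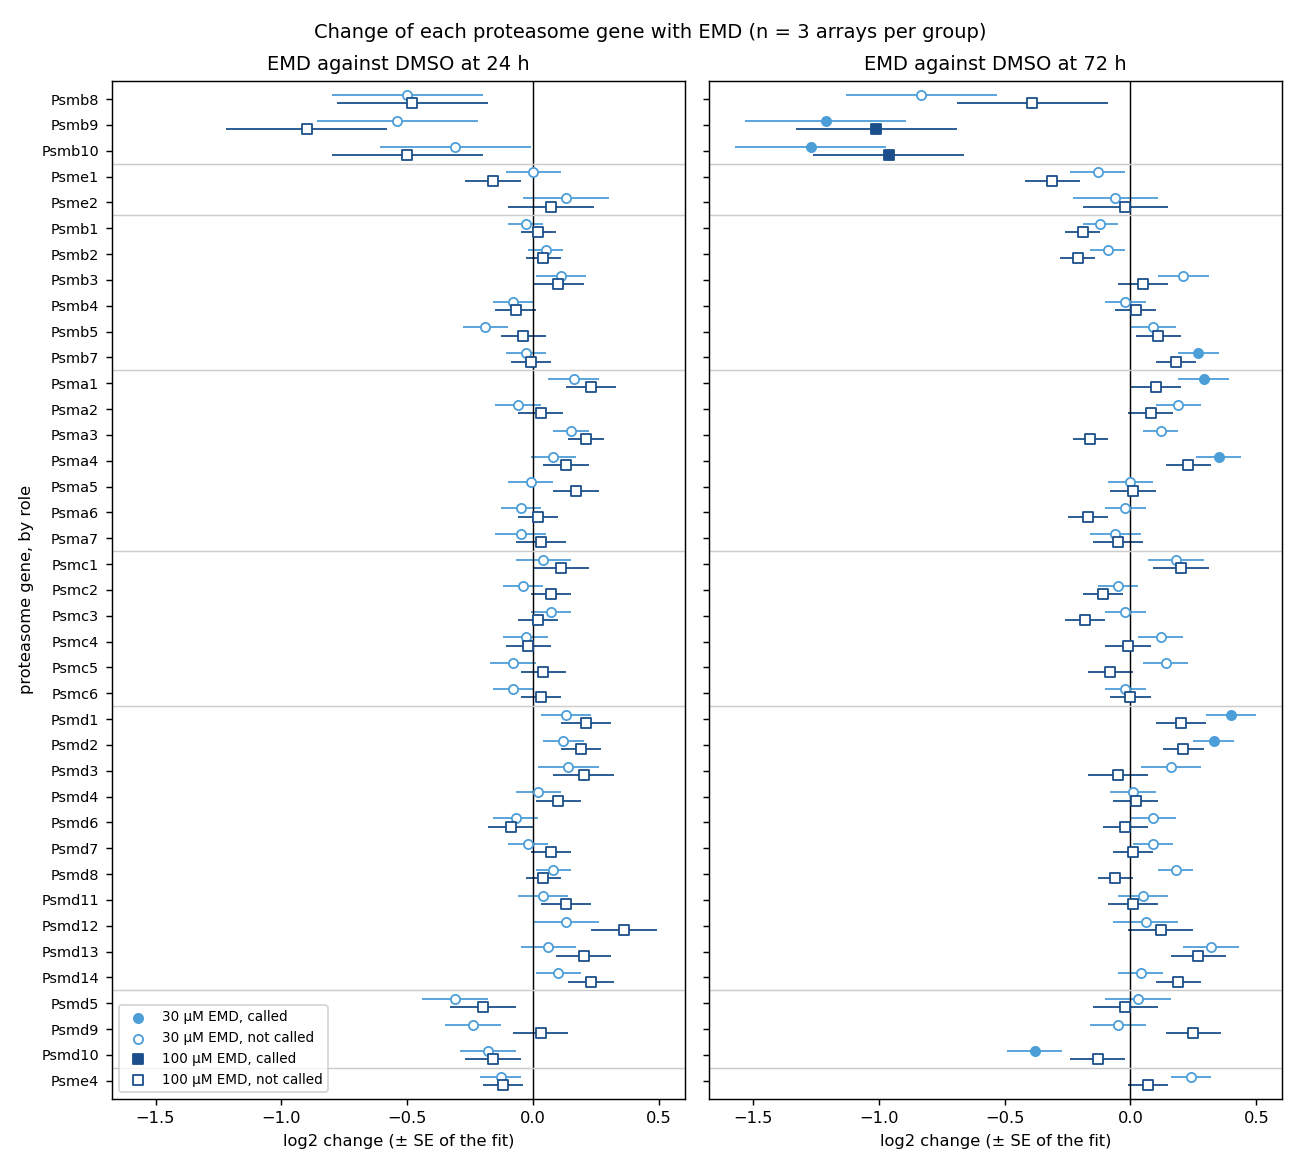
Log2 change (± SE of the fit) of each of the 39 proteasome genes, 30 or 100 µM EMD minus DMSO, at 24 h (left) and 72 h (right), with n = 3 arrays per group. Rows run from the inducible cutting subunits and the PA28 cap through the β ring, α ring, 19S ATPases, 19S non-ATPases and 19S chaperones to Psme4. Filled symbols were called. Each gene is shown by the probe set used. The constitutive genes so shown stay within 0.5 of no change, and Psmb9 and Psmb10 at 72 h lie near -1.

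Among the rises at 30 µM and 72 h were scaffold and ring subunits. Psmd1 and Psmd2 are the large scaffold proteins of the 19S base that receive ubiquitin-binding factors. Psmd1 had 8.80, 8.78 and 8.75 with EMD, against 8.36, 8.43 and 8.35 with DMSO, and Psmd2 had 10.51, 10.61 and 10.54, against 10.27, 10.28 and 10.14. The EMD arrays of both genes were tightly grouped and above all DMSO arrays, and the rises were 0.40 ± 0.10 (adjusted p = 0.012) and 0.33 ± 0.08 (0.0066). In the α ring, Psma4 (α3) had 10.55, 10.68 and 10.72 with EMD, against 10.30, 10.36 and 10.23 with DMSO, and Psma1 (α6) had 10.95, 11.22 and 11.24, against 10.71, 10.92 and 10.91. Neither overlapped, the lowest EMD array of Psma1 lying close above its highest DMSO array. Psma4 rose by 0.35 ± 0.09 (0.0098) and Psma1 by 0.29 ± 0.10 (0.049), the call of Psma1 being lost under 16 of 26 alternatives, with adjusted p up to 0.20 without DMSO 72 h replicate 1. The other 5 α genes differed by -0.06 to 0.19 and did not pass.

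Through the probe sets used, a single constitutive gene was called lower with EMD against DMSO. Psmd10 (gankyrin), a chaperone that holds ATPases during assembly of the 19S base, had 7.99, 8.03 and 8.28 in 30 µM EMD cultures, against 8.41, 8.53 and 8.51 with DMSO at 72 h. The change of -0.38 ± 0.11 (adjusted p = 0.021) was lost without EMD 30 µM 72 h replicate 1 (0.086) or 2 (0.084) or DMSO 72 h replicate 2 (0.074) or 3 (0.056). Its partner chaperones Psmd5 and Psmd9 differed by 0.03 and -0.05. None of the 6 ATPase genes was called at either dose, their differences at 72 h lying between -0.05 and 0.18 at 30 µM and between -0.18 and 0.20 at 100 µM.

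Over both doses and times together, 9 of 39 members (23.1%) were called, 5 higher and 4 lower, against 21.5% of all probe sets (9.43% higher and 12.1% lower) and 36% of those above the median level. Psmd1 (0.23 ± 0.06), Psmd13 (0.21 ± 0.07), Psmd2 (0.21 ± 0.05), Psma1 (0.20 ± 0.06) and Psma4 (0.20 ± 0.05) were higher, and Psmd10 (-0.21 ± 0.07) was lower, beside the 3 inducible subunits. Psmd13 is a structural subunit of the 19S lid. The count was 5 without DMSO 24 h replicate 1, where Psma1 (adjusted p = 0.068), Psmd10 (0.054), Psmd13 (0.10) and Psmb8 (0.15) lost their calls. The comparisons of both doses at a time share the DMSO arrays of that time.

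A single member was called between the doses. Psma3 (α7) at 72 h had 8.31, 8.35 and 8.37 in 100 µM EMD cultures, against 8.62, 8.65 and 8.61 in 30 µM EMD cultures. It was thus lower at 100 µM, by -0.28 ± 0.07 (adjusted p = 0.047), against a background of 3.1% of probe sets called (1.85% lower, and 5.53% in either direction above the median level), and 18 of 26 alternatives lost this call, with adjusted p up to 0.18, all but 3 of them leaving out a single array. At 24 h no probe set at all was called between the doses (0%), with 1 member under an unadjusted 0.05. The response to EMD differed between 72 h and 24 h for 0 of 39 members at 30 µM (background 0.941%, above the median level 1.44%, 5 members under an unadjusted 0.05) and for 0 at 100 µM (0.693% and 1.18%, 3 members).

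Over time in culture the share of members called was close to that of all probe sets. Between DMSO cultures of 72 h and 24 h, 9 of 39 members (23.1%) were called, 5 higher and 4 lower, all constitutive, against 21.7% of all probe sets (11% higher and 10.7% lower) and 31% of those above the median level. The median change over members was -0.01, beside -0.05 over all probe sets, and the median absolute change was 0.13, against 0.24 for probe sets above the median level. Without DMSO 72 h replicate 1 the count was 6. The 3′ minus 5′ difference of beta-actin, a measure of RNA integrity and labelling, was 0.698 ± 0.0536 at 72 h and 1.32 ± 0.0393 at 24 h with DMSO (SD, n = 3 each), that of Gapdh 0.168 ± 0.0237 and 0.289 ± 0.0127, and their part in the changes over time was not tested. At 72 h the beta-actin difference was 0.848 ± 0.0406 with 30 µM EMD and 0.847 ± 0.00578 with 100 µM EMD, above that of DMSO, and its part in the EMD results was likewise not tested.

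Psma3 rose most. Its values were 8.46, 8.53 and 8.52 at 72 h, against 7.49, 7.62 and 7.70 at 24 h with DMSO, an increase of 0.90 ± 0.07 (adjusted p = 5.7e-07), or 1.87-fold. EMD cultures had 8.31 to 8.65 at 72 h and 7.66 to 7.86 at 24 h, so that the 9 later arrays lay above the 9 earlier ones. Psmd1 went the other way, with 8.36, 8.43 and 8.35 at 72 h, against 9.30, 9.38 and 9.46 at 24 h, a fall of -1.0 ± 0.10 (6.4e-06). Its level at 72 h was 50.0% of that at 24 h, and the rise with 30 µM EMD at 72 h was smaller than this fall.

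Psmb1 (β6) rose by 0.47 ± 0.07 (adjusted p = 1.6e-04), with 11.78, 11.90 and 11.91 at 72 h, against 11.42, 11.34 and 11.44 at 24 h. The 19S ATPase Psmc3 had 10.18, 10.16 and 10.05 at 72 h, against 9.66, 9.71 and 9.84 at 24 h, and rose by 0.40 ± 0.08 (0.0029). Psmd14, the enzyme that removes ubiquitin chains from substrates, had 10.43, 10.41 and 10.36 at 72 h, against 10.08, 10.08 and 10.25 at 24 h. It rose by 0.26 ± 0.09 (0.045), and its other probe sets by 0.90 ± 0.14 (3.0e-04) and 0.38 ± 0.09 (0.009). The lid subunit Psmd8, with 11.89, 11.95 and 11.97 at 72 h, against 11.75, 11.66 and 11.77 at 24 h, rose by 0.21 ± 0.07 (0.045). The calls of Psmd14 and Psmd8 were each lost under 15 of 26 alternatives, with adjusted p up to 0.13 (without DMSO 24 h replicate 2) and 0.15 (with only the arrays compared, and 0.14 without DMSO 24 h replicate 2). For Psmc6, another ATPase, the probe set used differed by -0.05 ± 0.08, whereas a second was called higher by 0.50 ± 0.12 (0.006).

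The assembly chaperones Psmd5 and Psmd9 were lower at 72 h. Psmd5 had 9.47, 9.55 and 9.60 at 72 h, against 9.90, 9.90 and 10.30 at 24 h, and Psmd9 had 8.18, 8.28 and 8.29, against 8.55, 8.60 and 8.78. No arrays overlapped, and the changes were -0.49 ± 0.13 (adjusted p = 0.013) and -0.39 ± 0.11 (0.015). The call of Psmd5 was lost without DMSO 24 h replicate 3 (0.073), its highest array. That of Psmd9 was lost without DMSO 24 h replicate 3 (0.069) or DMSO 72 h replicate 1 (0.051). Psme4, the PA200 cap known for its role in degrading acetylated histones, had 9.80, 9.75 and 9.63 at 72 h, against 10.05, 10.15 and 10.16 at 24 h, and changed by -0.39 ± 0.08 (0.0038). Its other probe sets disagreed, at -0.23 ± 0.08 (0.042) and 0.76 ± 0.18 (0.0078), so that no single direction holds for this gene. None of the inducible genes was called over time, with Psmb10 at 0.55 ± 0.30 (0.21), Psmb8 at -0.24 ± 0.30 and Psmb9 at -0.15 ± 0.32, and Psmb10 passed only without DMSO 72 h replicate 3 (0.046) or with the replicate block (0.031).

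**Figure D3:**
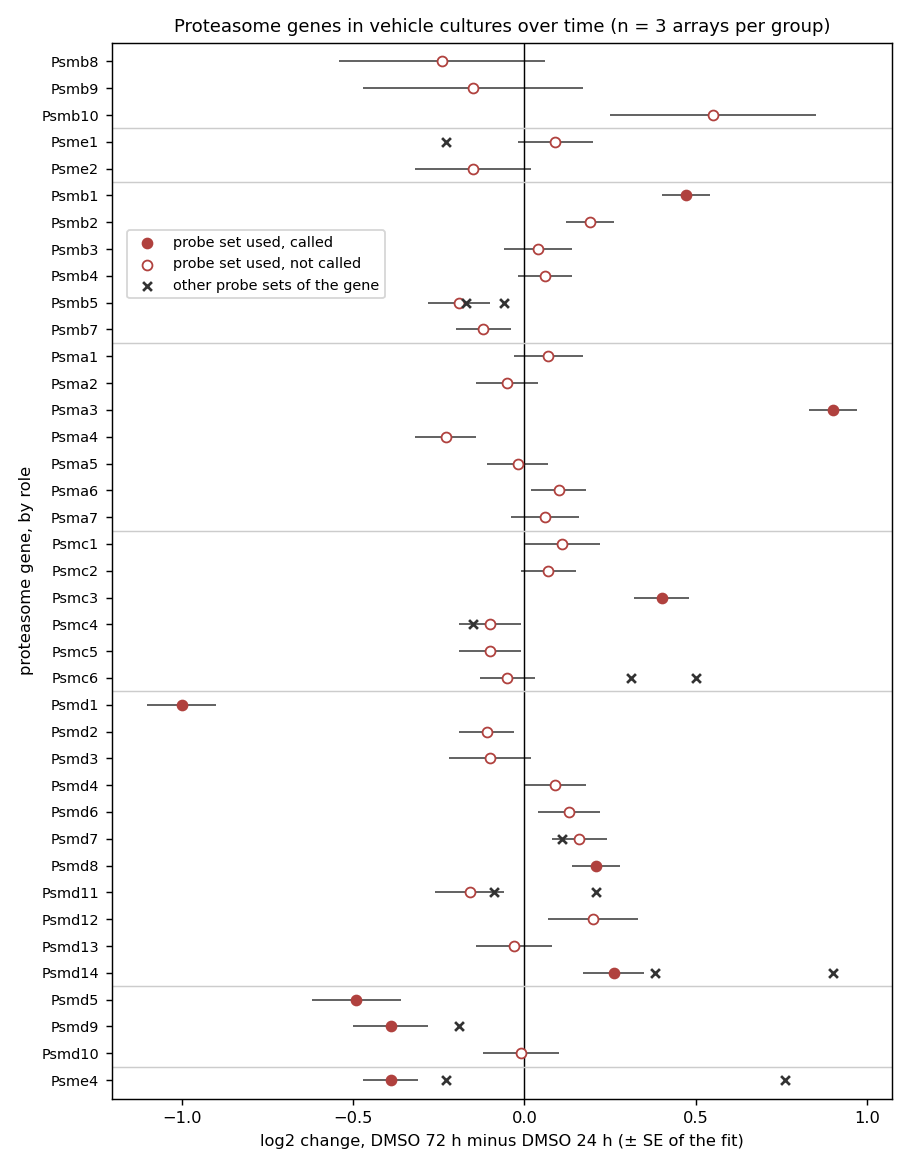
Log2 change (± SE of the fit) of each proteasome gene in DMSO cultures, 72 h minus 24 h, n = 3 arrays per group. Circles are the probe sets used (filled where called) and crosses the other probe sets of the same gene. Psma3 lies furthest to the right at 0.90 and Psmd1 furthest to the left at -1.0, and the crosses of Psme4 lie on both sides of 0.

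Proteasome genes are under the control of the factors NRF1 and NRF2, which bind the antioxidant response element together with small MAF proteins. The core of this element, TGACNNNGC, was searched on both strands and occurred in 7 of 30 constitutive promoters (23.3%), in 0 of 5 immunoproteasome promoters and in 12.1% of all promoters of the table. The 7 were Psma3, Psmb2, Psmb5, Psmd1, Psmd3, Psmd9 and Psme4. The stretches shown are those of Psmb5, the only measured constitutive cutting subunit with a match, and of the members that moved furthest in each direction over time. The letters are in capitals, that of Psma3 being in reverse complement. A second match of Psmd1, at 23 after its start, lies outside the stretch shown.
Psmb5, chr15:32047380-32047449 (- strand): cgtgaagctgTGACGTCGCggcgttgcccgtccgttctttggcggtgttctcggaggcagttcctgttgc
Psma3, chr6:95219689-95219748 (+ strand): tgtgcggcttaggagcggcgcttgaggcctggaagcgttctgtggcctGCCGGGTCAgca
Psmd1, chr9:94157801-94157860 (+ strand): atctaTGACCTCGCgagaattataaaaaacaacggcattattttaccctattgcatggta
Both the member with the largest rise over time and that with the largest fall held the letters. Of the genes that encode this control, 8 of 10 listed were measured, and 3 rose and 0 fell over time with DMSO (11% of all probe sets rose and 10.7% fell), among them Nfe2l1 (NRF1) by 1.44 ± 0.14 (adjusted p = 2.6e-06) and Ddi2, the protease that activates NRF1, by 0.68 ± 0.11 (3.8e-04). With 30 µM EMD at 72 h, where 7.88% of all probe sets rose and 9.22% fell, 1 rose and 2 fell: Mafg, a small MAF, by -0.67 ± 0.13 (0.0017), Nfe2l2 (NRF2) by -0.60 ± 0.18 (0.031), and Keap1, which holds NRF2 inactive, was higher by 0.32 ± 0.11 (0.05 after rounding). The call of Nfe2l2 was lost without DMSO 72 h replicate 1 (0.17) or EMD 30 µM 72 h replicate 2 or 3 (0.12 each), and that of Keap1 under 16 of 26 alternatives. With 100 µM at 72 h, 0 rose and 2 fell (9.68% of all probe sets fell), Mafg by -0.67 ± 0.13 (0.0018) and Ddi2 by -0.34 ± 0.11 (0.04), a call lost under 9 of 26.

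Of 13 measured genes for assembly and inhibition of the proteasome, 1 rose with EMD at each dose at 72 h and 0 fell, against 17.1% of all probe sets called at each dose. This was Psmg1, which with a partner chaperone assembles the α ring. It had 9.92, 10.30 and 10.26 in 30 µM EMD cultures, against 9.20, 9.47 and 9.56 with DMSO, a rise of 0.75 ± 0.12 (adjusted p = 3.1e-04). At 100 µM it had 9.87, 10.03 and 10.09, a rise of 0.58 ± 0.12 (0.0026). All EMD arrays of 72 h lay above all DMSO arrays. Over time with DMSO, Psmg3 (0.52 ± 0.09), another assembly chaperone, and Psmf1 (0.26 ± 0.08), an inhibitor of the 20S core, rose and the ubiquitin receptor Adrm1 (-0.66 ± 0.10) fell. The call of Psmf1 was lost with only the arrays compared (adjusted p = 0.10) and without DMSO 24 h replicate 1 (0.079) or 2 (0.068) or DMSO 72 h replicate 2 (0.064) or 3 (0.061). Of 20 measured genes of ubiquitin and of the p97 unfoldase, 1 rose and 3 fell at 30 µM and 72 h, and 4 rose and 3 fell at 100 µM, beside 17.1% of all probe sets called at each dose and 28.4% and 28.3% of those above the median level, where all 20 lie. Among the rises were Ubqln1 at 30 µM (0.42 ± 0.10, adjusted p = 0.0053), and Sel1l (0.96 ± 0.23, 0.0068) and Stub1 (0.49 ± 0.11, 0.0065) at 100 µM. Among the falls, the autophagy receptor Sqstm1 changed by -0.49 ± 0.08 at 30 µM and -0.52 ± 0.08 at 100 µM. It was not called in the mean of all its probe sets (adjusted p = 0.094 and 0.41). The heat-shock gene Hspa1a changed by -0.95 ± 0.23 and -0.76 ± 0.23 at these doses. The calls of Hspa1a were lost without EMD 30 µM 72 h replicate 2 at 30 µM (0.053) and without any of 5 arrays at 100 µM (DMSO 72 h replicates 1, 2 and 3 and EMD 100 µM 72 h replicates 1 and 2, up to 0.12).

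The genes that act with the immunoproteasome in antigen presentation were lower in part. Of 17 measured genes of the class I pathway, 0 rose and 5 fell with 30 µM EMD at 72 h, and 0 rose and 3 fell with 100 µM, where 9.22% and 9.68% of all probe sets fell, the medians being -0.32 and -0.08 beside 0.01 and 0.02 over all probe sets. Tap1, which with Tap2 carries peptides into the endoplasmic reticulum, had 6.46, 6.41 and 6.25 in 30 µM EMD cultures, against 7.57, 7.46 and 7.31 with DMSO, a fall of -1.07 ± 0.23 (adjusted p = 0.0029). At 100 µM it had 6.62, 6.93 and 6.80, and the difference of -0.66 ± 0.23 did not pass (0.057). Tap2 changed by -0.72 ± 0.16 (0.0049) and -0.68 ± 0.16 (0.0074) at these doses. The class I genes RT1-S3 and RT1-M3-1 changed by -2.11 ± 0.44 and -1.22 ± 0.19 at 30 µM and by -1.96 ± 0.44 and -1.04 ± 0.19 at 100 µM, with the reservation on RT1 probes given above. The constant chain B2m differed by 0.16 ± 0.07 at 30 µM and did not pass.

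**Figure D4:**
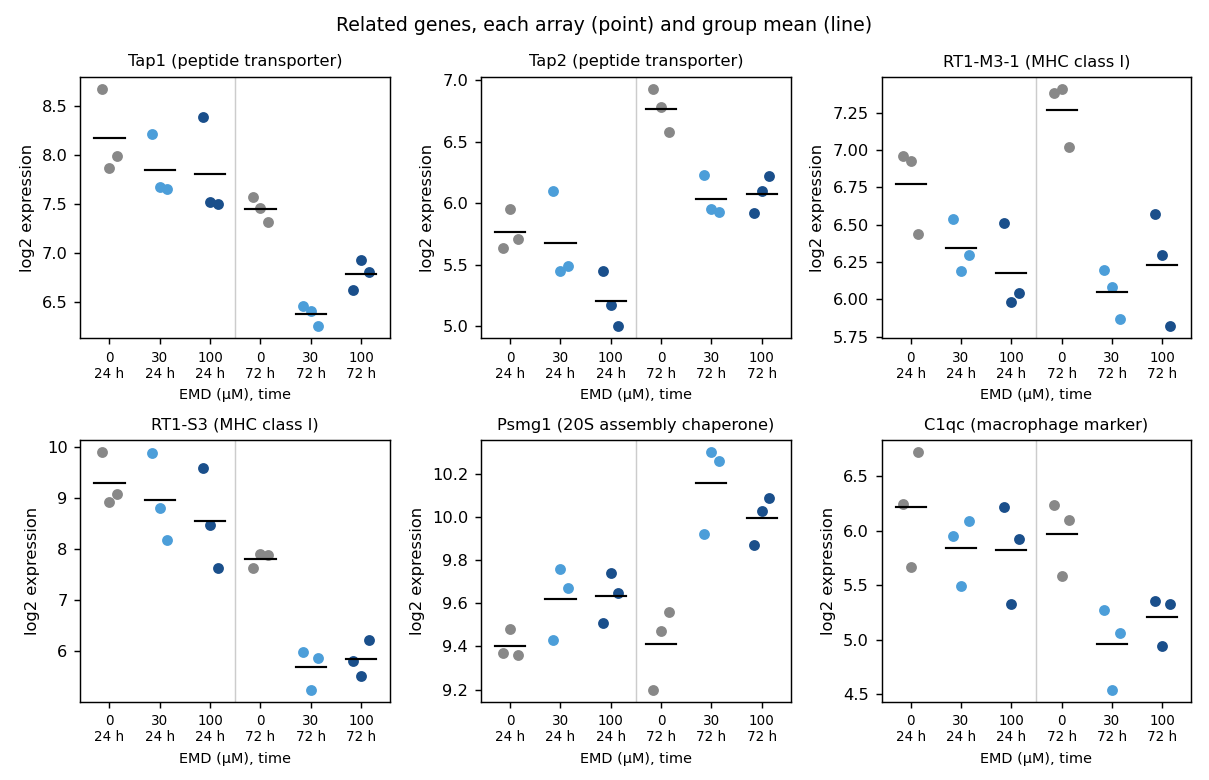
Log2 expression of Tap1, Tap2, RT1-M3-1, RT1-S3, Psmg1 and C1qc by EMD dose (µM, 0 being DMSO) at 24 h and 72 h. Points are arrays (replicates 1, 2 and 3 from left to right), lines are group means and each panel has its own axis. At 72 h the EMD arrays of Tap1 (6.25 to 6.93) lie under the DMSO arrays (7.31 to 7.57), and those of Psmg1 lie above.

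Of 26 measured genes of interferon signalling, 2 rose and 5 fell at 30 µM and 72 h, where 7.88% of all probe sets rose and 9.22% fell. At 100 µM and 72 h, 2 rose and 6 fell, where 9.68% of all probe sets fell and 17.1% were called in either direction. The median of the list was -0.20 at each dose. The chemokine Cxcl11 changed by -1.78 ± 0.20 and -1.41 ± 0.20. It was already called lower at 24 h, by -1.02 ± 0.20 at 30 µM (adjusted p = 0.0045) and -0.96 ± 0.20 at 100 µM (0.0068). Irf1, a factor that turns on the inducible subunits, changed by -0.66 ± 0.19 at 100 µM (adjusted p = 0.021) with overlapping groups, a call lost without DMSO 72 h replicate 1 (0.12) or 2 (0.098) or EMD 100 µM 72 h replicate 2 (0.08) or 3 (0.078), or with only the arrays compared (0.15). The chemokine Cxcl9, which interferon γ induces, rose by 0.60 ± 0.10 at 30 µM (3.3e-04). Over time with DMSO, 2 genes of this list rose and 10 fell (11% and 10.7% of all probe sets did). Among the falls were Isg15 by -3.61 ± 0.63, Mx2 by -3.17 ± 0.79 and Cxcl9 by -2.51 ± 0.10. The rise of Cxcl9 with 30 µM EMD at 72 h was smaller than its fall over time. The 3 inducible cutting subunits differed by -0.24 to 0.55 over that time and were not called in the main fit, and Psmb10 passed with the replicate block (0.031).

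Liver macrophages express the inducible subunits, and 7 of their 11 measured markers lay under the median level of all probe sets. The mean of the 11 measured markers was 4.76 to 5.04 on the 30 µM EMD arrays and 4.83 to 5.03 on the 100 µM EMD arrays of 72 h, against 5.00 to 5.23 with DMSO. At 24 h it was 5.19 to 5.49 and 5.15 to 5.41 with EMD at 30 and 100 µM, against 5.21 to 5.87 with DMSO. These ranges overlap. Of the 11, 1 fell at 72 h at each dose, where 9.22% of all probe sets fell at 30 µM and 9.68% at 100 µM. These were C1qc at 30 µM (-1.02 ± 0.28, adjusted p = 0.016) and Cd14 at 100 µM (-0.84 ± 0.18, 0.0035). Over both doses and times C1qb (-0.55 ± 0.16) and C1qc (-0.64 ± 0.17) fell, as did 12.1% of all probe sets. The call of C1qc at 30 µM was lost without DMSO 72 h replicate 1 (0.072) or 3 (0.051) or EMD 30 µM 72 h replicate 2 (0.092), and that of C1qb without DMSO 24 h replicate 1 (0.068) or 3 (0.076) or DMSO 72 h replicate 1 (0.076). Cd68 differed by -0.31 ± 0.32 at 30 µM and 0.40 ± 0.32 at 100 µM at 72 h. Over time with DMSO, where 10.7% of all probe sets fell, 4 markers fell, Cd68 by -1.72 ± 0.32 (0.0012). Psmb8, Psmb9 and Psmb10 differed by -0.24, -0.15 and 0.55 over that time, with SEs of 0.30 to 0.32, and were not called in the main fit. Psmb10 passed with the replicate block (0.031). Of 11 lymphocyte markers, 0 were called with EMD at 72 h, against 17.1% of all probe sets at each dose, and all lay under the median level. The part of these markers in the results on the inducible subunits was not tested.

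Of the 39 members, 21 were called in none of the 10 comparisons and 18 (46.2%) in at least 1, against 39.8% of all probe sets and 59.6% of those above the median level. Those without a call included Psme1 and Psme2, Psmb2 to Psmb5, and 5 of the 6 ATPase genes.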

How the data were processed

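Each of 18 cultures was hybridised to its own Affymetrix rat array. The authors deposited log2 values from RMA, which corrects background, forces all arrays to 1 distribution and summarises probes, so global shifts are lost and low values compressed. No source used here names the program's version. Of 31099 probe sets, 57 controls were dropped, and the platform annotation gave 20826 of the rest 1 symbol, 436 several and 9780 none.

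Tests used limma 3.58.1 under R 4.3.3 (all 6 groups fitted together by lmFit and eBayes, two-sided, Benjamini-Hochberg adjustment over 31042 probe sets, threshold 0.05, intervals at 95%), after a test on simulated data. The simulated arrays varied independently, so that test does not cover deviations shared by arrays of the same replicate number. The average over both doses and times is the mean of the 4 EMD groups minus that of the 2 DMSO groups.

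Members, lists and motifs were chosen with earlier results of these data known. Named were the 5 immunoproteasome genes and their counterparts, up to 5 called constitutive members per direction whose groups did not overlap, and up to 4 called genes per list. Others (Psmc6, RT1-N2, RT1-CE16, B2m, Epcam, Apoa1, Serpina1 and macrophage genes) were named after their values were seen. Alternatives were cyclic loess, equal medians, a filter at the median level, fitting the compared arrays alone, array weights, an intensity trend with robust moderation, a replicate block, averaging a gene's probe sets, and omitting each array. Precision is limited by the number of arrays.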

Additional observations from a re-analysis of the deposited data

Results flagged for a closer look

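Of the genes listed beside the proteasome and named here, 4 responded to EMD differently at 72 h and 24 h by limma's interaction term. The change with 30 µM EMD in Cxcl9, a chemokine induced by interferon γ, was higher at 72 h than at 24 h by 0.64 ± 0.14 (adjusted p = 0.038), and this passed under 14 of 26 alternatives (highest adjusted p 0.11 without EMD 30 µM 24 h replicate 3, EMD 30 µM 72 h replicate 2 or EMD 30 µM 72 h replicate 3). For Mafk, a small MAF partner of NRF1 and NRF2, the change with 100 µM EMD was lower at 72 h than at 24 h, with a difference of -0.74 ± 0.16 (adjusted p = 0.046), and this passed under 7 of 26 (highest 0.15 with only the arrays compared, and 0.12 without DMSO 72 h replicate 2 or EMD 100 µM 72 h replicate 2). The changes of the hepatocyte markers Apoa1 and Serpina1 with 30 µM EMD were lower at 72 h than at 24 h, with differences of -0.59 ± 0.13 (0.046) and -0.98 ± 0.22 (0.042), each passing under 10 of 26, as was that of Serpina1 with 100 µM EMD (-1.11 ± 0.22, 0.027), passing under 18 of 26. No proteasome subunit passed this test in the main fit.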

How the results depend on the processing

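Counts of members called are given here, out of 39. At 30 µM and 72 h (8 in the report), over all EMD groups (9) and over time with DMSO (9), all alternatives other than leaving out an array stayed within 1.5 times these counts. At 100 µM and 72 h (2) the count was 5 with cyclic loess, 6 with probe sets above the median level, 1 with only the arrays compared, 12 with array weights, and 4 with the mean of all probe sets. At 100 µM and 24 h (0) it was 1 with cyclic loess or the mean of all probe sets. Between the doses at 72 h (1) it was 2 with cyclic loess or the mean of all probe sets, 0 with equal array medians, only the arrays compared, or an intensity trend, and 4 with array weights. Leaving out 1 array gave 0 to 0 at 30 µM and 0 to 1 at 100 µM at 24 h, 5 to 9 and 0 to 7 at these doses at 72 h, 5 to 11 over all EMD groups, 0 to 0 and 0 to 2 between the doses at 24 and 72 h, 6 to 9 over time with DMSO and 0 to 0 for the change of the response with time at each dose. Psme4 over time was 0.04 (adjusted p = 0.75) in the mean of its probe sets, against -0.39 in its brightest. Scaling alternatives moved the median of all probe sets by under 0.1. Using only the arrays compared could not give another value for the mean over all EMD groups, which uses every array.

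The main fit did not pair arrays by replicate number. No label ties a number to an animal, and not all same-numbered pairs had deviations from their group means that correlated over 0.1. Of 45 such pairs 39 did (median 0.32, lowest 0.01), against a median of -0.17 for other pairs. What same-numbered arrays share thus counts as spread in the main fit. The pairs that stayed under 0.1 do not show that the arrays are unpaired, and the methods state that cells of each animal received all treatments. With the number as a replicate block the count was 1 at 30 µM and 1 at 100 µM at 24 h (Psmb9 in each, adjusted p = 0.033 and 6.9e-04), 4 at 100 µM and 72 h, and 1 for the change with time of the response to 30 µM (Psmb10, 0.05 rounded). Psmb8 at 30 µM and 72 h passed with it (0.0019), and so did Psme1 at 100 µM (0.010), Psme1 over all EMD groups (0.037), Psmb10 over time with DMSO (0.031), Psmd13 (0.046) and Psme4 (0.048) at 30 µM and 72 h, and Psmb2 at 100 µM and 72 h (0.046). With 3 arrays in a group and RMA values without detection calls, small changes of the inducible subunits (SE about 0.30) cannot be resolved. Changes well above that SE also went uncalled in the main fit. Psmb8 at 30 µM and 72 h differed by -0.83, and Psmb9 at 100 µM and 24 h by -0.9. An uncalled difference of these genes thus does not show that they were unchanged.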
